A study of Homo sapiens with 6 samples.

Results

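The plasminogen activator system and the serpins around it were followed here as 9 genes in MCF10A cells, an immortalized, nontumorigenic human mammary epithelial line: *PLAU*, *PLAUR*, *PLAT*, *SERPINE2*, *SERPINB2*, *SERPINB5*, *SERPINB1*, *ANXA2* and *S100A10*. They are the rows of the deposited count table that carry these names, 9 of 58735 genes, and all 9 were among the 15430 genes with enough counts to test. Cells transfected with a pool of siRNAs against *DAB2IP* (siDAB2IP, 3 libraries) were compared with cells transfected with a nontargeting pool (siControl, 3 libraries), 48 hours after transfection. Both groups are the same cell line and received the same transfection reagent and the same growth medium, which holds horse serum, EGF, insulin, hydrocortisone and cholera toxin. A single pool was used against *DAB2IP*, so an effect of the pool on other transcripts cannot be told apart from the loss of *DAB2IP*. The labels number the replicates 1 to 3 but do not say whether they were separate cultures, so that the p-values measure only the spread between these libraries, which may be technical.

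Plasminogen is a circulating zymogen that the serine proteases uPA (*PLAU*) and tPA (*PLAT*) cut into plasmin, a protease that degrades fibrin and pericellular matrix. The receptor uPAR (*PLAUR*) holds uPA at the cell surface, and the heterotetramer of annexin A2 (*ANXA2*) and S100A10 (*S100A10*) binds plasminogen and tPA there. Serpins are suicide inhibitors: protease nexin-1 (*SERPINE2*) and PAI-2 (*SERPINB2*) trap the activators, whereas maspin (*SERPINB5*) and the neutrophil elastase inhibitor (*SERPINB1*) belong to the same clade as PAI-2 but are not classical inhibitors of uPA or tPA.

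Of the 9 members, 3 rose with *DAB2IP* knockdown (33.3%), namely *PLAU*, *PLAUR* and *SERPINB2*, against 6.55% of all genes tested that rose. The members were chosen with earlier results of these data known, so these shares describe the set and do not test it for an excess. None of the 9 fell by the edgeR quasi-likelihood test with Benjamini-Hochberg adjustment, fitted without pairing the libraries, against 7.65% of all genes that fell. At an unadjusted p under 0.05, 4 members were higher and 1 was lower. DESeq2, edgeR with a block on the replicate number, and edgeR without a filter on low counts each called 1 as fallen, *PLAT*. No share over all genes is given beside these counts, so they are not read as an excess. The fitted value was above 0 for 7 of the 9, against 51.1% of all genes tested. The median log2 fold change of the members was 0.20 beside 0.009 over all genes tested. Groups did not overlap for 4 of the 9 (44.4%), 3 of them higher and 1 lower in siDAB2IP, beside 35.9% of all genes tested.

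Promoter windows of the genes that rose are shown first, as the annotated upstream sequence of these genes, and counts per gene do not show which start was used. Each line gives the 250 bases before the RefSeq transcription start (GRCh38.p14), 5′ to 3′ on the strand of the gene. Capitals mark matches, on either strand, to AP-1 (TGANTCA), to the GC box (GGGCGG) or to the TATA box (TATAAA). *PLAU* has a pair of annotated starts, and the window shown is the one that holds matches, chr10:73910882-73911131 on the plus strand. The *PLAUR* window is chr19:43670170-43670419 on the minus strand, and that of *SERPINB2* is chr18:63887455-63887704 on the plus strand.
PLAU: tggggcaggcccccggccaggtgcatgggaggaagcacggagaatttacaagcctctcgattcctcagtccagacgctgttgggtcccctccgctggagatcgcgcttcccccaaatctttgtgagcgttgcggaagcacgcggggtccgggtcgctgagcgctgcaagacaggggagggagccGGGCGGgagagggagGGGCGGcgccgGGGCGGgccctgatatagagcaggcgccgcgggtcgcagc
PLAUR: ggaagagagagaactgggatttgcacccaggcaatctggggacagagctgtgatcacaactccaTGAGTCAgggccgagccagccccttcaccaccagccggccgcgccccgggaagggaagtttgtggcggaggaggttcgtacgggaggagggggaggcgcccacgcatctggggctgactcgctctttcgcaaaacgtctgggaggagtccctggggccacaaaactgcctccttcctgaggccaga
SERPINB2: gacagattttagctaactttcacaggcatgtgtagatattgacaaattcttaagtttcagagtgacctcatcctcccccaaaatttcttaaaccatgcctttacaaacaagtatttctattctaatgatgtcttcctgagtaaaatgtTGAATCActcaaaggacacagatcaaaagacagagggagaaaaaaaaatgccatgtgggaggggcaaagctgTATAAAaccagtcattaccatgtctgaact
The *PLAU* window holds 3 GC boxes, at -66 to -61, -51 to -46 and -40 to -35 counted from the transcription start. An AP-1 match lies at -186 to -180 in *PLAUR* and at -102 to -96 in *SERPINB2*, which also has a TATA box at -30 to -25.

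Windows of 250 bases before to 50 after the start were found for 8 of the 9 members, some with more than 1 start. The AP-1 letters were present in 4 of these 8, namely *PLAUR*, *SERPINB2*, *SERPINB5* and *ANXA2*, and in 9.37% of the 27305 genes of the whole table, each counted once if any of its windows held a match. Of these 4 genes, *PLAUR* and *SERPINB2* rose, while *SERPINB5* and *ANXA2* did not pass the threshold. The GC box was present in 6 of the 8 members against 48.3% of all genes, and TATAAA in 2 of 8 (*SERPINB2* and *ANXA2*) against 14%. The NF-κB consensus (GGGRNWYYCC, with R for A or G, W for A or T, Y for C or T, N for any base) was present in 0 of 8 and in 7.09% of all genes. A match of letters in these windows is a description and no evidence of binding. The lack of a match does not show that a gene has no site, since other spellings and sequence outside the windows were not searched.

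Depth ranged from 16353783 to 21916062 counts per library, and levels are given as CPM, counts scaled to a common library total by TMM. A gene without a count may still have had up to 3 counts, or 0.137 to 0.183 CPM, a bound for counting error only. *DAB2IP* itself had 103, 94.2 and 77.4 CPM in siControl and 27.5, 25.6 and 22.4 CPM in siDAB2IP, a log2 fold change of -1.86 (SE 0.132, adjusted p = 9.71e-05). The 9 basal and myoepithelial markers used, all tested, had 11500 to 13700 summed CPM in the siControl libraries and 8690 to 10300 in the siDAB2IP libraries. Of them *LAMB3* rose while *KRT5*, *KRT14* and *KRT17* fell. Of the markers of other cells, 4 of 9 luminal, 3 of 8 fibroblast, 6 of 7 endothelial and 3 of 8 leukocyte genes had enough counts to test, and of these *FOXA1*, *COL1A1* and *CSF1R* rose and *KDR* fell. Their summed levels were 275 to 314 CPM in siControl and 220 to 341 in siDAB2IP for luminal, 163 to 293 and 146 to 206 for fibroblast, 25.3 to 36.3 and 17.3 to 18.9 for endothelial, and 44.0 to 79.3 and 67.8 to 90.1 for leukocyte markers. Within these lists levels were uneven. *KRT18* (143 to 148 CPM in siControl), *XBP1* (106 to 144), *DCN* (148 to 275) and *CD14* (35.9 to 69.7) were well detected, while *PGR*, *COL3A1*, *PTPRC* and *CD3E* had 0 to 4 counts. The part of these shifts in the results below was not tested, and in bulk RNA fewer cells of a type and less RNA per cell cannot be told apart.

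The activator uPA and its receptor rose together. *PLAU* (chr10:73909177-73917497, plus strand) had 81.8, 89.7 and 84.1 CPM in siControl replicates 1, 2 and 3 and 127, 155 and 146 CPM in the siDAB2IP replicates. All 3 knockdown libraries lay above all 3 controls, and the mean moved from 85.2 ± 4.08 to 143 ± 14.3 CPM (SD, n = 3). The log2 fold change was 0.74 (SE 0.104, adjusted p = 0.00269), a 1.67-fold increase. The difference held in each same-numbered pair, at 0.63, 0.79 and 0.80 log2 units. *C10orf55*, on the opposite strand, shares 916 exon bases with *PLAU*, 31.1% of its exons, and held 9 to 16 counts. The strand setting of the counting is not stated. Reads that fall in both genes may have been counted for neither, which was not tested.

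*PLAUR* (chr19:43646095-43670547, minus strand), which encodes uPAR, had 29.2, 36.5 and 40.7 CPM in siControl. The siDAB2IP libraries had 76.1, 84.2 and 73.6 CPM, each above every control. From 35.5 ± 5.80 to 78.0 ± 5.54 CPM (SD, n = 3) the log2 fold change was 1.13 (SE 0.129, adjusted p = 0.00109), or 2.20-fold. Pair by pair the log2 difference was 1.38, 1.21 and 0.85, smallest in replicate 3. Both calls held in all 15 other fits.

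Receptor and ligand did not move by the same factor in every replicate. The ratio of *PLAUR* to *PLAU*, taken on FPKM (counts scaled by gene length and library total), was 0.236, 0.269 and 0.320 in siControl and 0.397, 0.360 and 0.333 in siDAB2IP. The groups did not overlap, although the highest control and the lowest knockdown library were close. The mean log2 difference was 0.41, with an exact two-sided permutation p of 0.1, the smallest that 3 against 3 libraries allow, and an exact sign-flip p over the 3 pairs of 0.25, likewise the smallest possible. 2 such ratios were compared, and neither can pass 0.05 in this design.

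The other activator went the other way without a firm call. *PLAT* (chr8:42175233-42207724, minus strand), the gene of tPA, had 275, 278 and 227 CPM in siControl and 220, 205 and 139 CPM in siDAB2IP. Every knockdown library was below every control, but the lowest control and the highest knockdown library differed by little and siDAB2IP replicate 3 was far below the other two. The means were 260 ± 28.9 and 188 ± 42.8 CPM (SD, n = 3), and the log2 fold change of -0.47 (SE 0.165) had an adjusted p of 0.0870 by edgeR. Blocking on the replicate number gave -0.49 (SE 0.0999, adjusted p = 0.0108), and the pairs differed by -0.33, -0.44 and -0.70. DESeq2 gave -0.47 with an adjusted p of 0.0345, and edgeR without a filter on low counts gave 0.00226. Without siDAB2IP replicate 3 the fold change was -0.29 and not past the threshold.

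**Figure D1:**
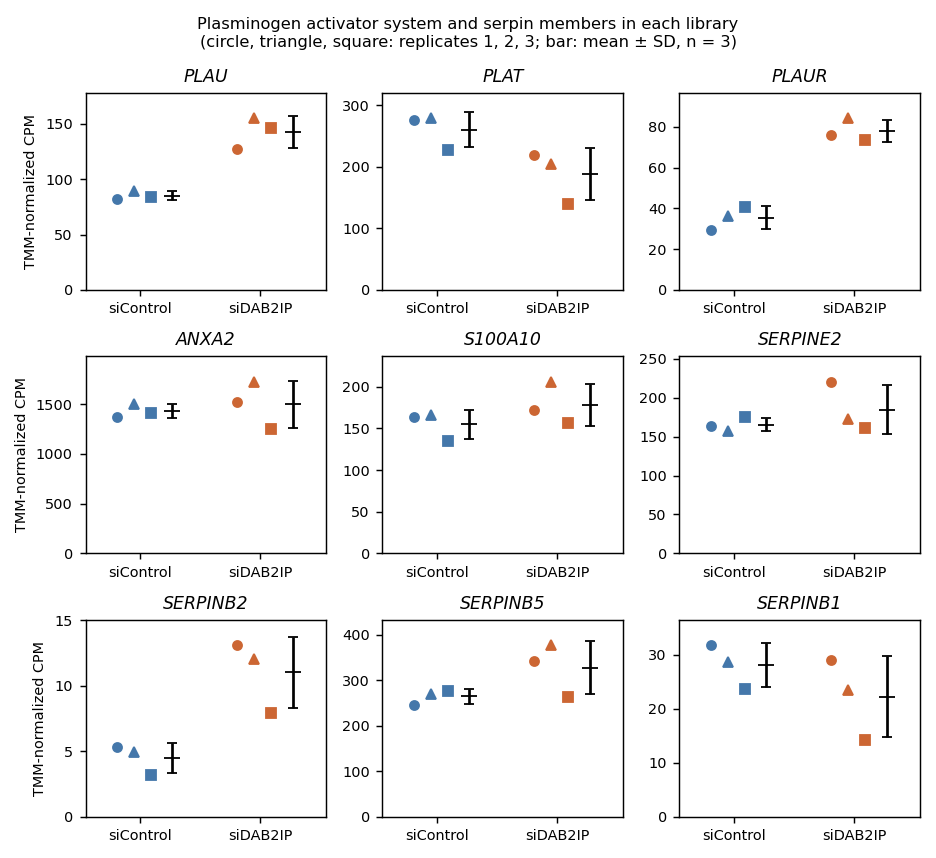
TMM-normalized CPM (linear axes from 0) of the 9 members in the 3 siControl (blue) and 3 siDAB2IP (orange) libraries, with circle, triangle and square for replicates 1, 2 and 3 and a bar for the mean ± SD (n = 3). *PLAU*, *PLAUR* and *SERPINB2* show knockdown libraries above all controls, *PLAT* shows them below, and the groups of the other 5 overlap.

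Neither gene of the plasminogen receptor complex passed the threshold. *ANXA2* (chr15:60347134-60402883, minus strand) had 1370, 1504 and 1411 CPM in siControl and 1521, 1722 and 1249 CPM in siDAB2IP, where replicate 3 was the lowest of all 6 libraries and replicate 2 the highest. Its log2 fold change was 0.07 (SE 0.140, adjusted p = 0.791), and -0.04 without siDAB2IP replicate 2. The processed copy *ANXA2P2* held 85 to 171 counts, 0.448% of the *ANXA2* counts.

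*S100A10* (chr1:151982915-151994390, minus strand), the partner that carries the plasminogen binding site of the complex, had 164, 166 and 135 CPM in siControl and 172, 206 and 156 CPM in siDAB2IP. The groups overlapped, and the log2 fold change was 0.20 (SE 0.129, adjusted p = 0.333), with 0.08 left without siDAB2IP replicate 2 and 0.09 without siControl replicate 3. The FPKM ratio of *ANXA2* to *S100A10* was 1.46, 1.58 and 1.83 in siControl and 1.55, 1.46 and 1.40 in siDAB2IP, a mean log2 difference of -0.14 (exact permutation p = 0.3, exact sign-flip p over pairs = 0.5). Leaving out siControl replicate 3 gave -0.05, and leaving out siControl replicate 1 gave -0.22.

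Among the member serpins only PAI-2 rose. *SERPINB2* (chr18:63871692-63903890, plus strand) had 5.30, 4.92 and 3.17 CPM in siControl, from 85, 106 and 54 counts. The siDAB2IP libraries had 13.1, 12.1 and 7.94 CPM, from 232, 218 and 137 counts. Replicate 3 was the lowest in both groups, and the lowest knockdown library was still above the highest control. The means were 4.46 ± 1.14 and 11.04 ± 2.72 CPM (SD, n = 3), with a log2 fold change of 1.30 (SE 0.249, adjusted p = 0.00956) or 2.47-fold. Within pairs the log2 difference was 1.31, 1.29 and 1.33, the narrowest range among the 9 members. By limma on log2(FPKM + 1), with every gene that had a count included, the value was 0.92 (adjusted p = 0.0893). *SERPINB10* shares 547 exon bases with *SERPINB2* on the same strand, 19.9% of its exons, and held 0 to 2 counts. Reads that fall in both may likewise have been counted for neither.

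*SERPINE2* (chr2:223975112-224039319, minus strand), encoding the thrombin and uPA inhibitor protease nexin-1, had 164, 157 and 175 CPM in siControl and 220, 173 and 161 CPM in siDAB2IP. Only siDAB2IP replicate 1 stood above the controls, and the log2 fold change was 0.16 (SE 0.127, adjusted p = 0.447). It was 0.01 without siDAB2IP replicate 1 and 0.25 without siDAB2IP replicate 3. *SERPINB5* (chr18:63476761-63505085, plus strand), or maspin, had 246, 270 and 277 CPM in siControl and 343, 376 and 263 CPM in siDAB2IP. Replicates 1 and 2 of the knockdown lay above all controls and replicate 3 within them, with a log2 fold change of 0.31 (SE 0.137, adjusted p = 0.162). Without siDAB2IP replicate 3 it was 0.44 with an adjusted p of 0.0101. *SERPINB1* (chr6:2832332-2842006, minus strand) had 31.8, 28.7 and 23.7 CPM in siControl and 28.996, 23.5 and 14.1 CPM in siDAB2IP. Each knockdown library was below its same-numbered control while the groups overlapped, and the log2 fold change was -0.34 (SE 0.228, adjusted p = 0.358). This was -0.10 without siDAB2IP replicate 3 and -0.58 without siDAB2IP replicate 1.

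**Figure D2:**
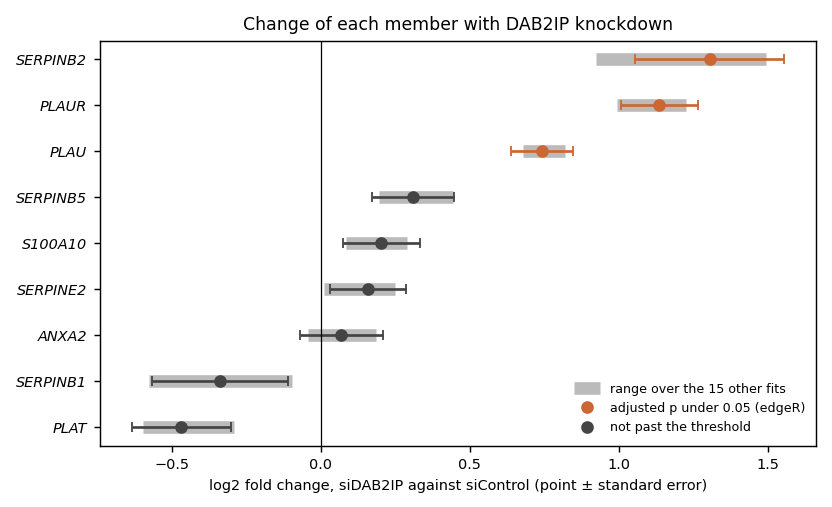
Log2 fold change (siDAB2IP against siControl) of the 9 members as points ± standard error from the edgeR fit, with grey bars for the range over the 15 other fits. *PLAU*, *PLAUR* and *SERPINB2* (orange) had an adjusted p under 0.05, and of the bars only that of *ANXA2* crosses 0.

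Per gene length, the order of FPKM levels in siControl was *ANXA2* (mean 160), *S100A10* (99.4), *SERPINB5* (66.5), *PLAT* (38.9), *PLAU* (28.6), *SERPINE2* (18.4), *SERPINB1* (8.995), *PLAUR* (7.89) and *SERPINB2* (1.61). Of the neighbours in this order, *SERPINB1* and *PLAUR* overlapped between libraries and the others did not. In siDAB2IP, *PLAU* (47.8) stood above *PLAT* (28.1), and *PLAUR* (17.3) above *SERPINB1* (7.10), without overlap in either case. These levels depend on the annotated gene lengths (2950 bases for *PLAU*, 6618 for *PLAT*), which need not be those of the transcripts present. In mean CPM, *PLAT* stayed above *PLAU* in siDAB2IP (188 against 143). *SERPINB2* had the lowest mean of the 9 in both groups (3.97 in siDAB2IP), though its highest knockdown library passed the lowest of *SERPINB1*. The knockdown libraries of *PLAT* and *SERPINE2*, and of *SERPINE2* and *PLAUR*, also overlapped.

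**Figure D3:**
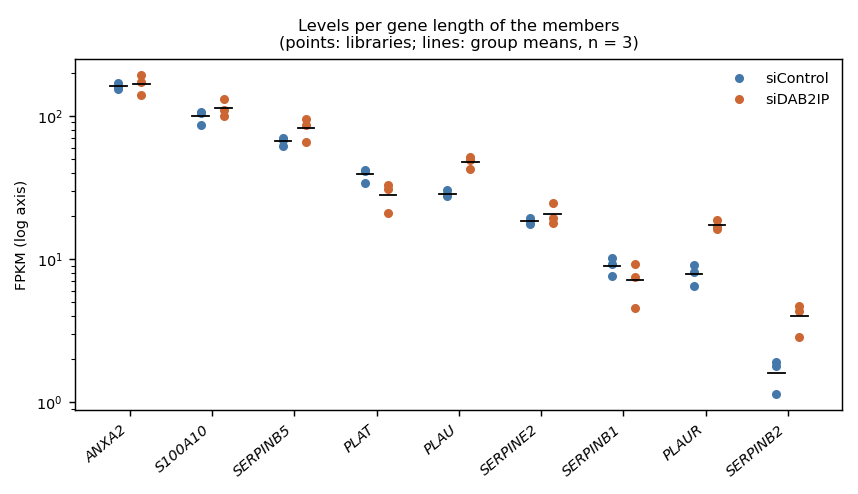
FPKM (log axis) of the 9 members in each siControl (blue) and siDAB2IP (orange) library, with lines for group means (n = 3), ordered by the siControl mean. Per annotated gene length, *PLAU* passes *PLAT* in the knockdown (47.8 against 28.1), which mean CPM does not show, and *ANXA2* stays highest (160 and 168).

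Summed over *PLAU* and *PLAT*, activator transcripts were 68.6, 72.0 and 62.1 FPKM in siControl and 75.5, 82.5 and 69.7 FPKM in siDAB2IP, and these groups overlapped. The make-up of the sum differed. *PLAU* made 40%, 42.0% and 45.4% of it in siControl and 56.5%, 62.9% and 70.2% in siDAB2IP, with means of 42.5% ± 2.74 and 63.2% ± 6.86 (SD, n = 3) and no overlap. The sum is of transcript levels and not of protein or enzyme activity, and the percentages depend on the annotated gene lengths.

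**Figure D4:**
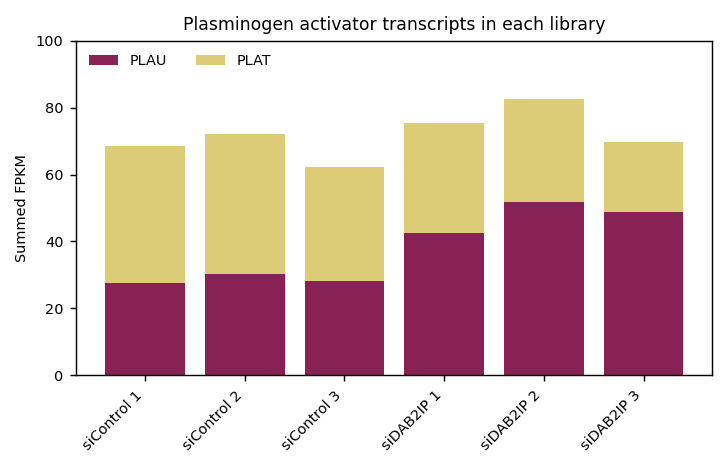
FPKM per library (linear axis from 0, stacked bars without error) of the activators *PLAU* and *PLAT*. The sums lie between 62.1 and 82.5 FPKM in all 6 libraries, and the *PLAU* part is 40% to 45.4% in siControl and 56.5% to 70.2% in siDAB2IP.

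Over all genes tested 6.55% rose and 7.65% fell by edgeR with all 6 libraries at an adjusted p under 0.05. These are the shares to set beside the counts of each list below at that threshold. Counts at an unadjusted p, or from other fits, are given without a share over all genes and are not read as an excess. Of 32 other genes of the plasminogen pathway, 22 were tested, and 0 rose and 0 fell by edgeR, with a median log2 fold change of 0.05. At an unadjusted p under 0.05, 2 were higher and 5 lower, and DESeq2 called 2 and 2. Blocking on replicate gave 2 rises and 2 falls, and leaving out siControl replicate 3 gave 2 rises and 1 fall. Plasminogen itself (*PLG*) had no count in any library. The endocytic receptor *LRP1*, which clears uPA and serpin complexes, was at 0.01 on the log2 scale (adjusted p = 0.973), and *THBS1*, which binds plasminogen and plasmin, 0.53 (adjusted p = 0.119).

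In the coagulation list 12 of 24 genes were tested, of which 4 rose and 2 fell (6.55% and 7.65% over all genes), with a median log2 fold change of 0.60. Without siControl replicate 1 or 3, 2 rose. Tissue factor, *F3*, the initiator of coagulation, had 55.5, 66.4 and 88.8 CPM in siControl and 132, 180 and 242 CPM in siDAB2IP (log2 fold change 1.40, SE 0.223, adjusted p = 0.00452). Thrombomodulin (*THBD*), which turns thrombin toward protein C, rose by 0.78 (adjusted p = 0.00205) and *TFPI*, the inhibitor of the tissue factor complex, by 0.61 (adjusted p = 0.0480). The *TFPI* call was lost when any library but siDAB2IP replicate 3 was left out (adjusted p = 0.107 to 0.155). *F8* rose by 1.22 (adjusted p = 0.0132) on 22 to 70 counts per library, and lost the call without siControl replicate 1 or 3 (adjusted p = 0.0551 and 0.0582). The thrombin receptor PAR1 (*F2R*) fell, from 116, 121 and 86.0 CPM to 57.1, 45.5 and 35.9 CPM (log2 fold change -1.22, SE 0.178, adjusted p = 0.00309). PAR2 (*F2RL1*), a receptor cut by trypsin-like proteases, fell by 0.93 on the log2 scale (adjusted p = 0.00662).

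Among uPAR partners at the cell surface 16 of 19 were tested, 2 rose and 0 fell (at an unadjusted p under 0.05, 6 were higher and 1 was lower). *ITGA5*, the α5 subunit of the fibronectin receptor, had 621, 616 and 635 CPM in siControl and 1321, 1305 and 1332 CPM in siDAB2IP, a log2 fold change of 1.08 (SE 0.105, adjusted p = 0.000449). *GPC1*, a cell surface heparan sulfate proteoglycan, rose by 0.43 (adjusted p = 0.0168) and lost the call without any 1 of the controls (adjusted p = 0.0652, 0.0977 and 0.0658). Without siDAB2IP replicate 3, 6 of these genes rose. Over all genes, fits that left out 1 library gave 264 to 1172 rises, so this count is not read as particular to the list.

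In the lists of the other small families 6 of the 7 calls were lost when some single library was left out. Of 14 listed genes of the Ly6/uPAR family, which shares the receptor's three-finger fold, 3 were tested. *LYPD3* was up (0.59, adjusted p = 0.0252) and the complement inhibitor *CD59* was down (-0.39, adjusted p = 0.0364). The list is not the whole family, and *LY6K*, a member outside it, rose by 1.12 (adjusted p = 0.00123). Of 28 membrane proteases, kallikreins and Kunitz inhibitors 20 were tested. Prostasin (*PRSS8*) rose by 0.84 (adjusted p = 0.00767) and *SPINT2*, a Kunitz inhibitor, fell by 0.57 (adjusted p = 0.0346), against 4 and 3 genes in the list with the replicate block and 3 rises without siDAB2IP replicate 3. Annexins had 10 of 11 tested, with *ANXA3* up (0.55, adjusted p = 0.0156) and 0 down. At an unadjusted p under 0.05, 3 annexins were higher and 0 lower. Partners of annexin A2 and S100A10 had 8 of 13 tested, with the channel gene *ASIC1* up (0.49, adjusted p = 0.0308) and the membrane repair gene *DYSF* down (-1.11, adjusted p = 0.0344). With the block 2 annexins and 2 of these partners rose. Without 1 library the adjusted p passed 0.05 for *LYPD3* (siControl 2 or 3, siDAB2IP 1 or 2, 0.0548 to 0.110), for *CD59* (every library but siDAB2IP 3, 0.0510 to 0.128), for *SPINT2* and *ANXA3* (each siControl, 0.0530 to 0.112), for *ASIC1* (each siControl and siDAB2IP 1, 0.0501 to 0.141) and for *DYSF* (siControl 1 or 2, siDAB2IP 2, 0.0525 to 0.115).

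Of 29 other SERPIN genes, 13 were tested, 1 rose (*SERPINB7*) and 3 fell (6.55% and 7.65% over all genes), with a median log2 fold change of -0.40. Without siControl replicate 2 or 3 none of these rose. α1-antichymotrypsin (*SERPINA3*) fell from 13.7, 18.2 and 12.6 CPM to 2.37, 2.603 and 3.19 CPM (log2 fold change -2.45, SE 0.209, adjusted p = 0.000222). The same-strand gene *AL049839.2* shares 31.8% of the *SERPINA3* exons, and reads that fall in both may have been counted for neither, which was not tested. *AL049839.2* itself held 3 to 28 counts and fell (log2 fold change -1.77, adjusted p = 0.0373). α1-antitrypsin (*SERPINA1*) fell from 84.1, 75.9 and 60.1 CPM to 41.7, 29.1 and 23.1 CPM (log2 fold change -1.23, SE 0.201, adjusted p = 0.00499). Both are classical plasma serpins that act on neutrophil proteases.

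*SERPINB2* and *SERPINB5* lie in a cluster of clade B serpin genes on chromosome 18, which did not move as a block. *SERPINB2* rose, while *SERPINB5* was not past the threshold (adjusted p = 0.162). *SERPINB7*, the clade B serpin next to *SERPINB2* on its 5′ side, rose by 1.43 (SE 0.342, adjusted p = 0.0233) on 44, 32 and 24 counts in siControl and 59, 89 and 117 counts in siDAB2IP. This call was lost without siControl replicate 2 (adjusted p = 0.109) or 3 (adjusted p = 0.0902). *SERPINB4* fell by 1.91 on the log2 scale (SE 0.535, adjusted p = 0.0413) on 45, 25 and 21 counts against 13, 8 and 3, and lost the call in 5 of the 6 fits that left out 1 library (adjusted p = 0.0643 to 0.146). *SERPINB4* and *SERPINB3* are near-identical copies between which reads may be split, and *SERPINB3* had -0.40 (adjusted p = 0.252). *SERPINB13* was at -0.00 (adjusted p = 0.997) and *SERPINB8*, beyond *SERPINB10*, at -0.57 (adjusted p = 0.0730). *SERPINB11* and *SERPINB12* had no count. Next to *SERPINB1* on chromosome 6, *SERPINB6* was at 0.19 (adjusted p = 0.225), and *SERPINB9* had 3 to 6 counts.

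**Figure D5:**
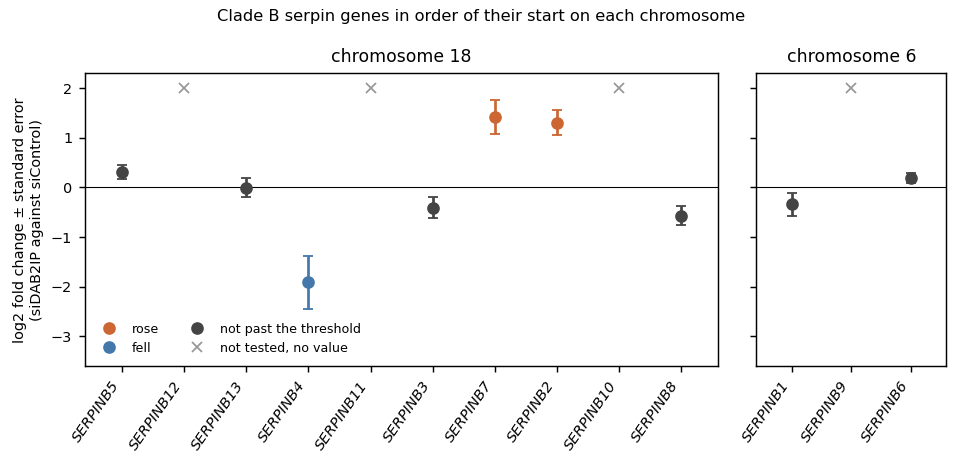
Log2 fold change ± standard error (siDAB2IP against siControl, edgeR) of clade B serpin genes in order of their start on chromosome 18 (left) and 6 (right), with crosses at the top for genes not tested. The neighbours *SERPINB7* (1.43) and *SERPINB2* (1.30) rose, *SERPINB4* (-1.91) fell, and the other 6 tested genes were not past the threshold.

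By the distance between log2 CPM profiles, centred over the 6 libraries, the 5 genes most like *PLAU* among 14074 were *ME1* (0.109), *MARCHF2* (0.116, listed in the tables as a date and matched by its identifier), *PFKFB4* (0.132), *CITED4* (0.135) and *CCNJ* (0.136). Those most like *PLAUR* were *LY6K* (0.199), *RPSAP52* (0.290), *ILDR1* (0.294), *TMC7* (0.307) and *SLC37A2* (0.315). *PLAUR* was only the 1342nd nearest gene to *PLAU*, at a distance of 0.612, and *PLAU* the 106th nearest to *PLAUR*. The distances describe 6 libraries that share a single contrast.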

How the data were processed

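RNA from 6 MCF10A libraries (3 siControl, 3 siDAB2IP, grouped by the labels) was sequenced. The authors deposited counts per gene, whole numbers without normalization, and FPKM values, in which each count was divided by gene length and a scaled library total (98.86% to 104.7% of the counts). Submitters' processing notes name STAR 2.6.1d, featureCounts 1.5.0-p3, DESeq2 1.20.0, edgeR 3.24.3 and hg38. All 58735 genes matched GENCODE 29 in start, end and strand. The strand setting is not given in the sources used here.

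Counts were fitted in R 4.3.3 with edgeR 4.0.16 (filterByExpr, TMM, glmQLFTest, Benjamini-Hochberg over 15430 genes, adjusted p under 0.05). SE is the absolute log2 fold change over the root of F. 15 other fits used DESeq2 1.42.0, limma 3.58.1 on log2(FPKM + 1) or + 0.1, other scaling or filters, the replicate block, or left out 1 library. The script was tested on simulated data. Ratios were tested by exact two-sided permutation. Sequences are from RefSeq (GRCh38.p14).

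Deviations from the group means correlated at 0.265, 0.155 and 0.255 between same-numbered libraries and at -0.278 to 0.021 otherwise, so the numbers were taken to pair them. No libraries were duplicates (within-group chi-square per degree of freedom at least 8.89). By this measure siDAB2IP replicate 3 lay farthest from the others of its group, at 33.5 from replicate 1 and 36.4 from replicate 2. Replicates 1 and 2 were at 9.26, and the controls at 18.5 or less. The members and lists were chosen with earlier results of these data known. Named were the members, *DAB2IP*, the changed genes of each list (at most 5), overlapping genes and copies, and the 5 genes nearest to *PLAU* and *PLAUR*. Other genes were named after their values were seen: *LRP1*, *THBS1*, *PLG*, *TFPI*, the markers and the remaining clade B serpins. Some genes of the lists, and a ratio that needed one, are not reported here.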

Additional observations from a re-analysis of the deposited data

How the results depend on the processing

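Of 135 values for the 9 members under 15 other fits, 129 kept their direction and side of the threshold. *PLAT* passed the threshold with DESeq2 (-0.47), without a filter on low counts (-0.48) and with the replicate block (-0.49), so 1 member fell in each of these. The block changed no other member's call. *SERPINB2* was at 0.92 and not past the threshold by limma on log2(FPKM + 1) without a minimum level. When each library was left out in turn, *SERPINB5* ranged from 0.20 to 0.44, past the threshold only without siDAB2IP replicate 3, and *ANXA2* from -0.044 to 0.18, below 0 only without siDAB2IP replicate 2. The cause was not tested.

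Over all genes 1011 rose and 1181 fell. These were 1479 and 1754 with the block, 659 and 758 by limma on log2(FPKM + 0.1), and 176 and 202 by limma without a minimum level. Leaving out 1 library gave 264 to 1172 and 459 to 1352, the lowest without siControl replicate 2. A list's median changed sign for the plasminogen pathway (-0.059 with DESeq2, -0.067 without a filter, -0.0044 by limma without a minimum level, and -0.010 to 0.042 with 1 library left out, below 0 without siControl replicate 2), the Ly6/uPAR family (-0.12, -0.16 and -0.0037 in these fits, and -0.065 to 0.39 with 1 library left out, below 0 without siDAB2IP replicate 3) and the annexin A2 and S100A10 partners (-0.18 to 0.055 with 1 library left out, above 0 without siDAB2IP replicate 3). DESeq2 and the unfiltered fits include genes of few counts. The 3 libraries per group and, for *SERPINB2*, *SERPINB4*, *SERPINB7* and *F8*, the low counts limit precision.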
